A study of Homo sapiens with 6 samples.

Results

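The SRSF, HNRNP, CLK and TRA2 genes are among the main families of splicing regulators, and their mRNA levels were compared between slow-cycling cells (SCC) and rapid-cycling cells (RCC) of one breast cancer line. The set held every protein-coding gene of the deposited count table whose name starts with SRSF or HNRNP, together with CLK1, CLK2, CLK3, CLK4, TRA2A and TRA2B. That gave 45 of the 58735 genes in the table: 12 SRSF, 27 HNRNP, 4 CLK and 2 TRA2 genes. The cells came from the human line MDA-MB-231, derived from triple-negative breast cancer and wild type in genotype, and were loaded with the membrane dye PKH26 and grown for 12 days. Dye is diluted at each division, so the brightest 1% were sorted as SCC (labelled PKH26hi) and dimmer cells as RCC. The labels call the RCC sort moderate in one place and PKH26lo in another. RNA-seq was done on 3 biological replicates of each of the 2 groups. All 6 libraries share the line, the dye and the 12 days of growth, and the sorted dye level separates the groups.

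SR proteins (SRSF and TRA2) carry RNA-binding domains and a tail rich in arginine-serine repeats. They bind exonic enhancers and mostly favour inclusion of the exon. The hnRNP proteins coat new transcripts and often act the other way, by silencing exons. CLK kinases phosphorylate the arginine-serine tails and so release SR proteins from nuclear speckles. Many genes of these families limit their own expression through a poison exon or a retained intron, which yields an mRNA that is degraded or kept in the nucleus. A gene count adds productive and unproductive transcripts together, so the values below are RNA per gene and not protein. In such bulk samples, fewer cells with a transcript and less of it per cell cannot be told apart. The labels do not say whether replicates came from separate cultures, so p-values measure the spread between these libraries.

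The summed count per library was 19498054 to 27831824 in SCC and 17655855 to 22746267 in RCC. Line markers fixed for the check were present (VIM, CD44, EGFR, AXL and CAV1, together 3336 to 3508 CPM, counts scaled to a common library total). ESR1, PGR and CDH1 were at a mean of at most 0.461 CPM, while GATA3, listed as absent, was at a mean of 8.93 CPM in SCC and 7.68 in RCC. Of the leukocyte markers, PTPRC was at 1.97, 0.256 and 0.711 CPM in SCC replicates 1 to 3 and 0.143 to 0.559 CPM in RCC. Its log2 fold change was 1.84 (edgeR adjusted p 0.206), 0.79 without SCC replicate 1 (adjusted p 0.602), and 1.83 with no filter, where it was called (adjusted p 0.0140). LYZ and CD68 were at a mean of at most 0.161 CPM in either group, and CD3E was at 0.0371 CPM in SCC replicate 1 and at 0 in the other 5 libraries. The 5 fibroblast and endothelial markers (PDGFRA, DCN, LUM, PECAM1 and CDH5) summed to 3.49 to 3.58 CPM in SCC and 2.96 to 3.64 CPM in RCC, most of it PECAM1. The 5 immediate early genes FOS, FOSB, JUNB, EGR1 and ATF3 were all called higher in SCC, and mitochondrial genes took 4.56% ± 0.17 of counts in SCC and 3.89% ± 0.11 in RCC (SD, n = 3). The part of these in the results below was not tested. SCC replicate 1 stood apart: the chi-square of its counts, divided by the degrees of freedom, was 28.5 and 21.4 against the other SCC libraries, and 3.28 to 4.24 for all other pairs within a group.

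Its deviation moved with GC content. Over all genes, it lay a median of -0.22 from the mean of the 6 libraries on the log2 scale in the GC decile with the lowest content, and 0.35 in the highest. The longest annotated transcripts of the 39 members that could be tested had a median GC content of 41.2%, against 48.1% for all tested genes. SCC replicate 1 was the lowest of the 3 SCC libraries for 26 of the 39 members (66.7%), and for 39.4% of all tested genes. The median difference in log2(CPM + 1) between SCC replicate 1 and the mean of SCC replicates 2 and 3 was -0.17 over the members and 0.01 over all tested genes. Among the 28 members with a GC content below 45% it was -0.18, and among the other 11 it was 0.08. The coefficient of variation over the 3 SCC libraries had a median of 8.29% in the members, which was 3.88% between SCC replicates 2 and 3 and 3.18% over the 3 RCC libraries. Protein-coding genes with a mean of at least 10 CPM had medians of 8.71%, 3.58% and 4.46% in the same order, so the wider spread in SCC was not particular to the members. The counts of calls and the members described below are therefore also given without SCC replicate 1 and with an offset for GC content; the part of GC content itself was not tested.

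**Figure D1:**
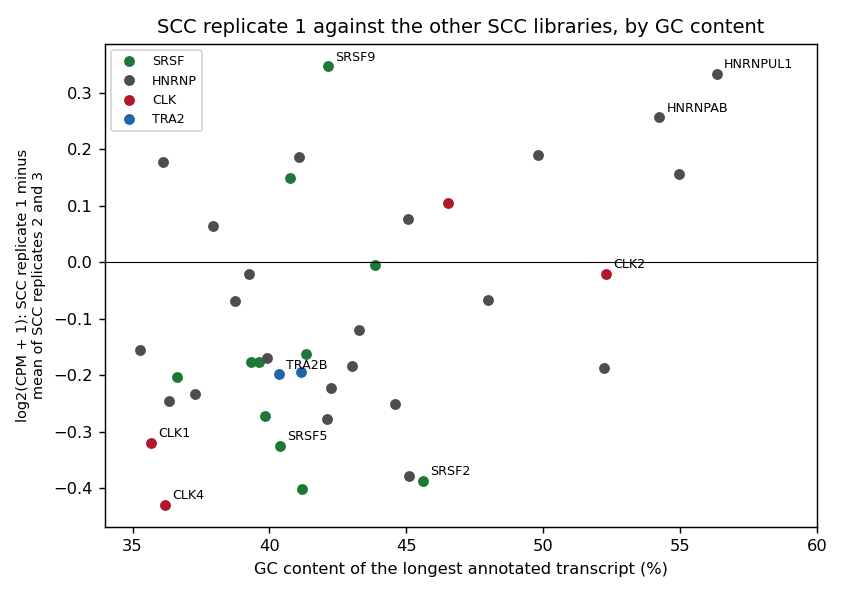
Each point is 1 of 39 tested members, coloured by family: the x axis is the GC content of its longest annotated transcript in percent, and the y axis the log2(CPM + 1) of SCC replicate 1 minus the mean of SCC replicates 2 and 3. Most members below 45% GC lie under the zero line, with a median of -0.18, and CLK1 and CLK4 are among the lowest, while SRSF9 and HNRNPUL1 lie highest.

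Promoter sequence is shown because the series title names AP-1, a factor that binds DNA. The genes shown are those called in at least 4 of the 16 alternative analyses below (CLK1, CLK2, TRA2B and SRSF5) and the hnRNP gene called most often (HNRNPA2B1). The sequences are the 250 bases before 1 transcription start per gene in RefSeq (build GRCh38.p14), 5′ to 3′ on the gene's strand. Capitals stand at any match to a motif searched on both strands. The windows of CLK2, SRSF5 and HNRNPA2B1 lie inside the gene positions given below, so any start further upstream was not searched. The letters TGANTCA stand for AP-1, and the CRE motif, which cAMP-responsive factors bind, is read as TGACGTCA. Added later than these were the E-box with the letters CACGTG and the ETS core, for which CCGGAA was searched. The CCAAT box, whose name gives its letters, and the TATA box, searched as TATAAA, were added with them. No motif contains another, although neighbouring matches can share letters.
CLK1, chr2:200864659-200864908, minus strand: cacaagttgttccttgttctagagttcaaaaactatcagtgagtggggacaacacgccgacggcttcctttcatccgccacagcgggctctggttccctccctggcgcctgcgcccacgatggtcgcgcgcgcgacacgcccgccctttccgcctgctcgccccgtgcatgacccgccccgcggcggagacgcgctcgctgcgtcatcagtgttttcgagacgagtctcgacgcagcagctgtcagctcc
CLK2, chr1:155273505-155273754, minus strand: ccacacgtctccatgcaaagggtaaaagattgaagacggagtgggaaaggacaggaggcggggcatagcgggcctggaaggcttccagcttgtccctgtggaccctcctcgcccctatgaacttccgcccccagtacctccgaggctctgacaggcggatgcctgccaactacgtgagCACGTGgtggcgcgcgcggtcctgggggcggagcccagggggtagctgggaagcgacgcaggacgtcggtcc
TRA2B, chr3:185938015-185938264, minus strand: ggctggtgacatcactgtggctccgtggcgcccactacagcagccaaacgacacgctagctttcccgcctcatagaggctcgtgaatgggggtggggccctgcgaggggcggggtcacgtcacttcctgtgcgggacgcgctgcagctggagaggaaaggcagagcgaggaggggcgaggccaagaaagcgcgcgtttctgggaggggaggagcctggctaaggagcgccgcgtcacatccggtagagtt
SRSF5, chr14:69766892-69767141, plus strand: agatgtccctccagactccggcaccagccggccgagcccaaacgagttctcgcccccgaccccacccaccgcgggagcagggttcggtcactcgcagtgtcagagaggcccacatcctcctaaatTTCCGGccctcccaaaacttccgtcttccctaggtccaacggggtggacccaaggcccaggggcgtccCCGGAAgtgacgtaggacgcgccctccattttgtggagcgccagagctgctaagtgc
HNRNPA2B1, chr7:26200747-26200996, minus strand: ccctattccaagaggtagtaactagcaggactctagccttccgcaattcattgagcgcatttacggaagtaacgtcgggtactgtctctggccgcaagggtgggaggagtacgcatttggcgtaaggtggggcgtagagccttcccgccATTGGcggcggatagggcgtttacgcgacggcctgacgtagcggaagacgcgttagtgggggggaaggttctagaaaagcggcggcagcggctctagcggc
The CLK1 and TRA2B windows held none of the 6 motifs. The capitals mark an E-box in CLK2, whose first base lies 72 bases before the start, ETS cores in SRSF5 that begin 125 and 57 bases before it, and a CCAAT box on the opposite strand in HNRNPA2B1. Promoters were matched for 40 of the 45 members. Of these 40, 0 held AP-1 and 0 held CRE, against 4.78% and 2.35% of the 15487 promoters of tested genes. An E-box was in 8 of the 40 (8.08% of tested genes), an ETS core in 7 (22.0%), a CCAAT box in 19 (32.6%) and a TATA box in 5 (6.12%). The sets are unlike, because the 40 include SRSF12, HNRNPUL2-BSCL2, HNRNPCL1, HNRNPCL2 and HNRNPCL4, which had too few counts to be tested. HNRNPCL1, HNRNPCL2 and HNRNPUL2-BSCL2 are among the 19 with a CCAAT box, and the HNRNPUL2-BSCL2 window shares its match with the overlapping HNRNPUL2 window. The median GC content of the windows was 65.0% in members and 64.4% in tested genes. A match is a match of letters only.

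On a per-length scale, the hnRNP genes made up most of the set. FPKM, which divides counts by gene length and by 1 constant per library, when summed over HNRNP genes was 79.2% ± 0.27 of the members' total in RCC and 77.8% ± 0.91 in SCC (SD, n = 3). SRSF genes took 17.7% ± 0.23 in RCC and 18.8% ± 0.75 in SCC, TRA2 genes 2.03% ± 0.046 and 2.29% ± 0.14, and CLK genes 1.07% ± 0.065 and 1.05% ± 0.031. The most abundant member was HNRNPA1, a silencer of exons that also binds telomeric and messenger RNA, at a level of 370.4 ± 12.6 FPKM in RCC and 343.6 ± 27.3 in SCC. The next were HNRNPAB (273.7 ± 16.6 FPKM in RCC) and HNRNPA2B1 (175.4 ± 3.37). SRSF3, the smallest SR protein, led its family with 70.2 ± 3.996 FPKM in RCC and 77.1 ± 5.85 in SCC. It was followed in RCC by SRSF2 (67.6 ± 1.20), SRSF7 (58.7 ± 0.76), SRSF6 (56.4 ± 1.08) and SRSF9 (52.4 ± 0.91). SRSF3 and SRSF2 differed by less than the SD of SRSF3, while SRSF7 lay above SRSF6 by more than either SD. Among the kinases the order of levels in RCC was CLK2 (16.3 ± 1.05 FPKM), CLK1 (6.82 ± 0.36), CLK3 (2.39 ± 0.11) and CLK4 (1.88 ± 0.32). The deposited gene length is the union of all annotated exons in 45 of 45 members, and reaches 22512 bases for HNRNPU and 20443 for CLK3, so FPKM of such genes is low for the reads they hold.

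**Figure D2:**
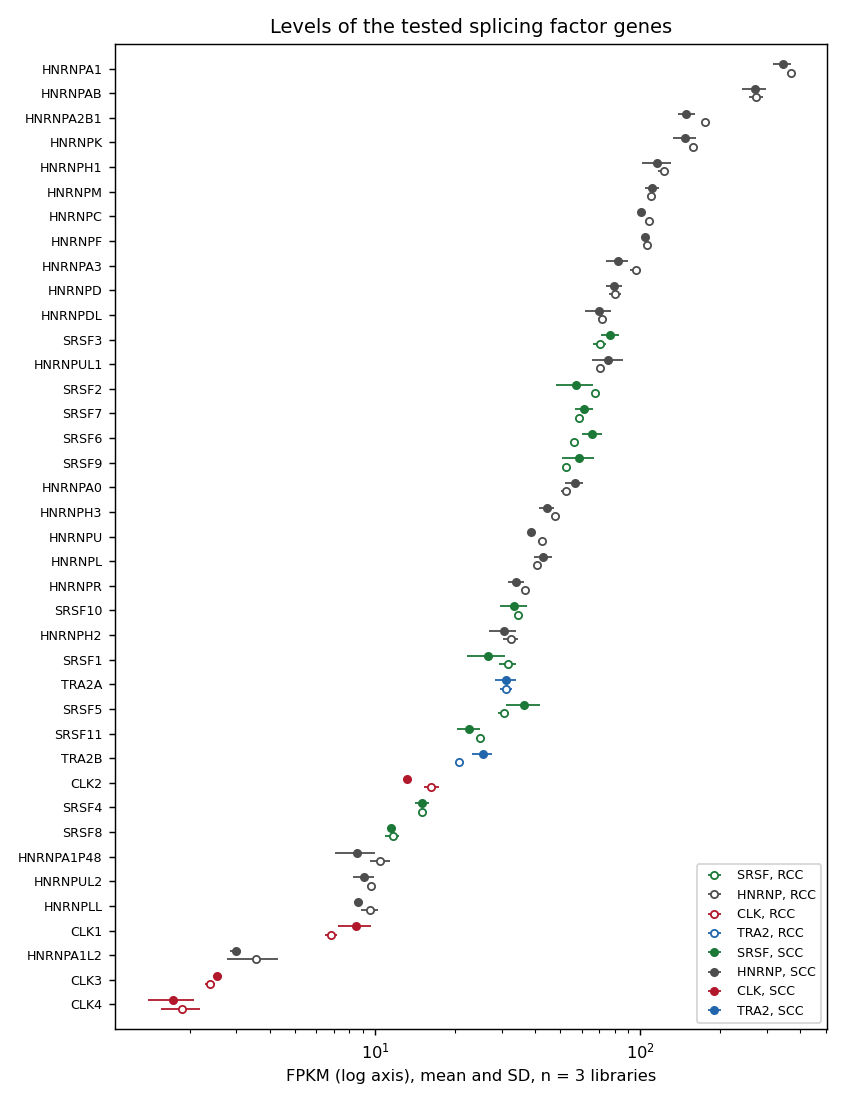
Level of each of the 39 tested members in FPKM on a log axis, as the mean and SD of 3 libraries, with open circles for RCC and filled circles for SCC, coloured by family and ordered by the RCC mean. HNRNPA1 is highest at 370.4 FPKM in RCC and CLK4 lowest at 1.88 FPKM, and the SCC and RCC circles of most genes lie close together.

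The 6 members that were not tested had too few counts. SRSF12 had 4 counts over the 6 libraries, HNRNPUL2-BSCL2 (a readthrough of neighbouring genes) 7 and HNRNPCL2 2, while HNRNPCL1, HNRNPCL3 and HNRNPCL4 had 0 in every library. The 39 tested members passed a filter on counts in at least 1 group.

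With all 6 libraries, 0 of the 39 tested members were called higher and 0 lower in SCC under edgeR's quasi-likelihood test, where a call is an adjusted p (Benjamini-Hochberg) under 0.05. Over all 15881 tested genes, 1.69% were called higher and 0.378% lower. The fitted log2 fold changes of the members lay between -0.30 and 0.32, with a median of -0.04, beside a median of 0.00 for all tested genes. Before adjustment, p was under 0.05 for 4 members that were higher and 7 that were lower, against 11.4% and 8.27% of all tested genes. The CPM values of the groups did not overlap in 3 members that were higher (14.4% of all tested genes) and in 8 that were lower (13.4%). By family, 18 of 22 HNRNP genes had a fitted value below 0, with a median log2 fold change of -0.09, beside 7860 of all 15881 tested genes. Their median was -0.05 without SCC replicate 1 (17 below 0) and -0.02 with the GC offset (14 below 0). Of the 11 SRSF genes, 5 were below 0, with a median of 0.01. Their median was 0.05 without SCC replicate 1 (5 below 0) and 0.10 with the GC offset (2 below 0). Over all genes the median was 0.00 in each of these fits.

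This changed when SCC replicate 1 was left out. Without it, 5 members were called higher (3.93% of the 16324 genes then tested) and 4 lower (2.10%): CLK1, TRA2B, SRSF5, SRSF6 and SRSF3 rose, and CLK2, HNRNPA2B1, HNRNPU and HNRNPA3 fell. With the GC offset on all 6 libraries, the same 5 rose (3.29% of all genes were called higher) and CLK2 alone fell (1.54%). Among protein-coding genes with a mean of at least 10 CPM, a level that 38 of the 39 reach, the shares called in either direction were 2.25% with all libraries, 8.11% without SCC replicate 1 and 5.91% with the offset. Leaving out any of the other 5 libraries gave 0 members higher in each fit and 0 lower, except HNRNPA2B1 without SCC replicate 2 (log2 fold change -0.28, edgeR adjusted p 0.0489, with 1.59% of all genes called lower). DESeq2 called TRA2B higher and CLK2 lower (2.51% and 0.766% of all genes), and edgeR without a filter called CLK1, SRSF5 and TRA2B higher (2.65%). The GC offset with the replicate number as a block added SRSF9 to the 5 that were higher (3.91%) and SRSF2 to CLK2 among the lower (2.71%). Over the 39 members, the log2 fold change furthest from 0 in these analyses was 0.47, for CLK1 with the offset.

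**Figure D3:**
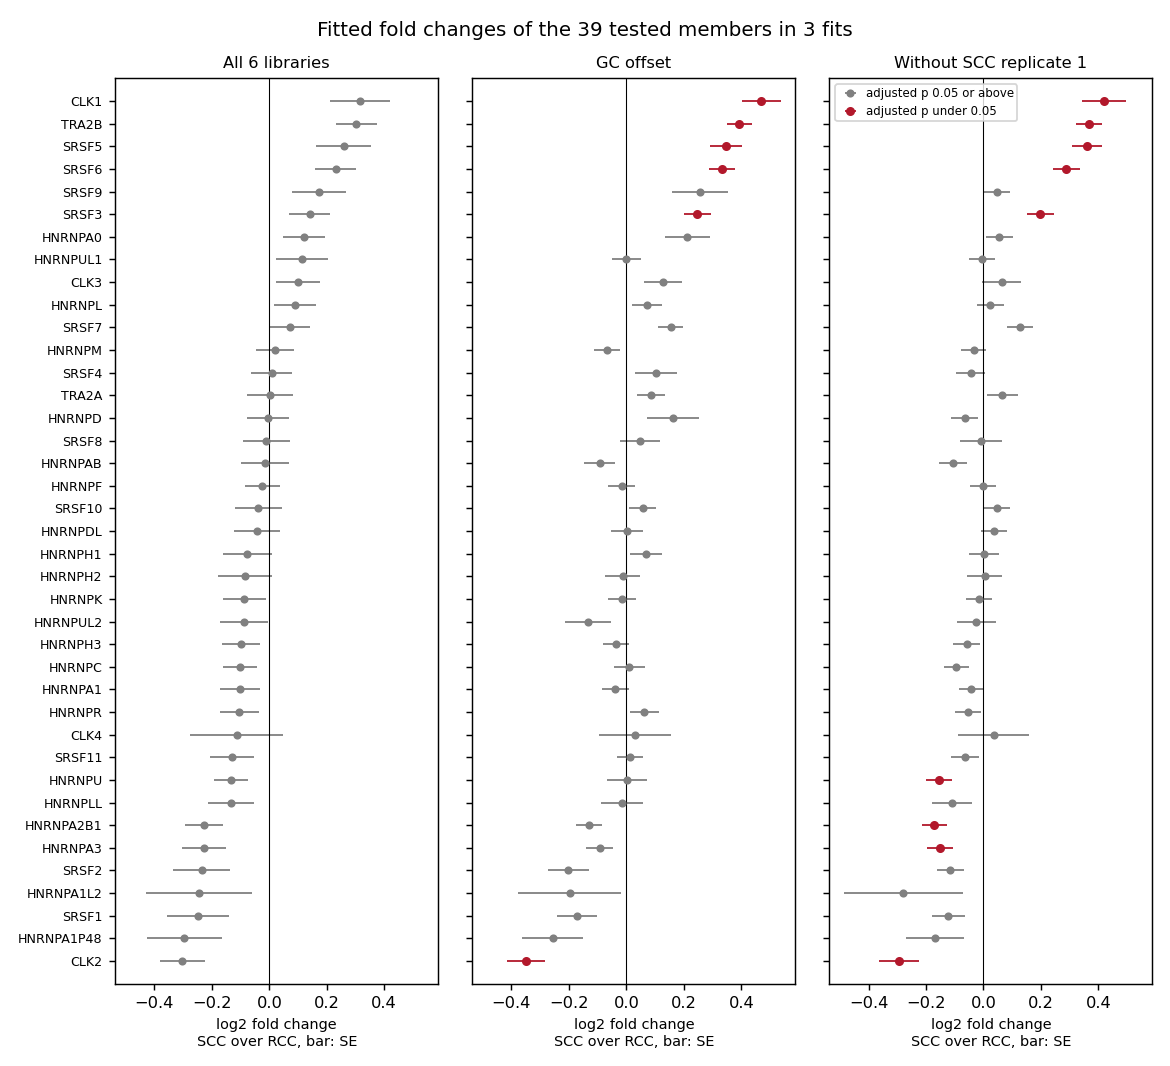
Fitted log2 fold change of SCC over RCC for each of the 39 tested members, with its standard error as a bar, with all 6 libraries (left), with the GC offset (middle) and without SCC replicate 1 (right); red marks an adjusted p under 0.05. No point is red on the left, 6 are red in the middle (CLK1, TRA2B, SRSF5, SRSF6, SRSF3 and CLK2) and 9 on the right.

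The kinases did not move as a group. CLK1 (ENSG00000013441, chromosome 2, 200853009 to 200864744), which phosphorylates SR proteins and regulates its own pre-mRNA, was at 37.7, 49.6 and 45.1 CPM in SCC replicates 1 to 3 and at 37.7, 34.3 and 34.1 in RCC replicates 1 to 3. SCC replicates 2 and 3 stood above every RCC library, while SCC replicate 1 and RCC replicate 1 were level, so the groups overlapped. SCC over RCC gave a log2 fold change of 0.32 ± 0.11 (SE, edgeR adjusted p 0.149), and 0.42 ± 0.077 without SCC replicate 1 (adjusted p 8.2e-04). With the GC offset it was 0.47 (adjusted p 6.1e-04). CLK1 has a GC content of 35.7%, among the lowest of the set.

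CLK2 (ENSG00000176444, chromosome 1, 155262868 to 155278491), a kinase of the same family, lay the other way, at 48.2, 47.5 and 50.2 CPM in SCC and 60.7, 55.6 and 63.8 in RCC. All 3 SCC libraries were below all 3 RCC libraries, and SCC replicate 1 lay between the other SCC libraries. On the log2 scale, the fold change was -0.30 ± 0.078 (SE, edgeR adjusted p 0.0788). It was called lower without SCC replicate 1 (-0.29, adjusted p 0.0090), with the GC offset (-0.35, adjusted p 0.0056) and by DESeq2 (-0.31, adjusted p 0.0493). CLK3, known for high expression in testis, was at 55.1, 50.4 and 51.9 CPM in SCC and 46.9, 49.1 and 51.1 in RCC, with overlapping groups (log2 fold change 0.10, adjusted p 0.480, with 0.06 when SCC replicate 1 was left out and 0.13 under the GC offset). CLK4, the closest relative of CLK1, was the least expressed, at 11.02, 16.4 and 14.1 CPM in SCC and 13.2, 13.8 and 17.8 in RCC. Its libraries were mixed and its standard error of 0.16 was the widest of the kinases (log2 fold change -0.11, adjusted p 0.716), and the sign turned when SCC replicate 1 was left out (0.04) and under the GC offset (0.03). Some CLK3 exons overlap EDC3 on the opposite strand, so its counts are uncertain.

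The count ratio of CLK1 to CLK2 needs no scaling for library totals. It was 0.782, 1.04 and 0.897 in SCC and 0.621, 0.616 and 0.535 in RCC, with every SCC library above every RCC library. CLK2 was lower in every SCC library and CLK1 was level or higher, so this ratio had to differ between the groups. In log2(CPM + 1), SCC replicate 1 lay -0.32 (CLK1) and -0.02 (CLK2) from the mean of SCC replicates 2 and 3. The GC contents of the genes are 35.7% and 52.3%. Shifts this unlike do not cancel in a ratio. This pair was chosen after its values were seen, and no test is given.

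TRA2B and TRA2A are SR-like proteins that bind GAA-rich exonic enhancers and regulate each other. TRA2B (ENSG00000136527, chromosome 3, 185915906 to 185938136) was at 274.3, 323.4 and 306.6 CPM in SCC and at 245.6, 243.8 and 243.9 in RCC. All SCC libraries were higher, and the RCC libraries were almost level. The log2 fold change was 0.30 ± 0.072 (SE), and its adjusted p of 0.0609 was the lowest in the set. TRA2B was called higher by DESeq2 (0.30, adjusted p 0.0194), under the GC offset (0.39, adjusted p 4.4e-05) and without SCC replicate 1 (0.37, adjusted p 2.6e-06). Its exons overlap no other annotated gene. TRA2A (ENSG00000164548, chromosome 7, 23504780 to 23532041) was at 100.6, 119.6 and 111.1 CPM in SCC and 107.9, 116.3 and 106.3 in RCC, with mixed libraries (log2 fold change 0.00, standard error 0.079, adjusted p 0.988). It was at 0.07 when SCC replicate 1 was left out (adjusted p 0.556) and 0.09 under the GC offset (adjusted p 0.363). The count ratio of TRA2B to TRA2A, also chosen after its values were seen, was 2.73, 2.70 and 2.76 in SCC and 2.28, 2.10 and 2.29 in RCC.

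**Figure D4:**
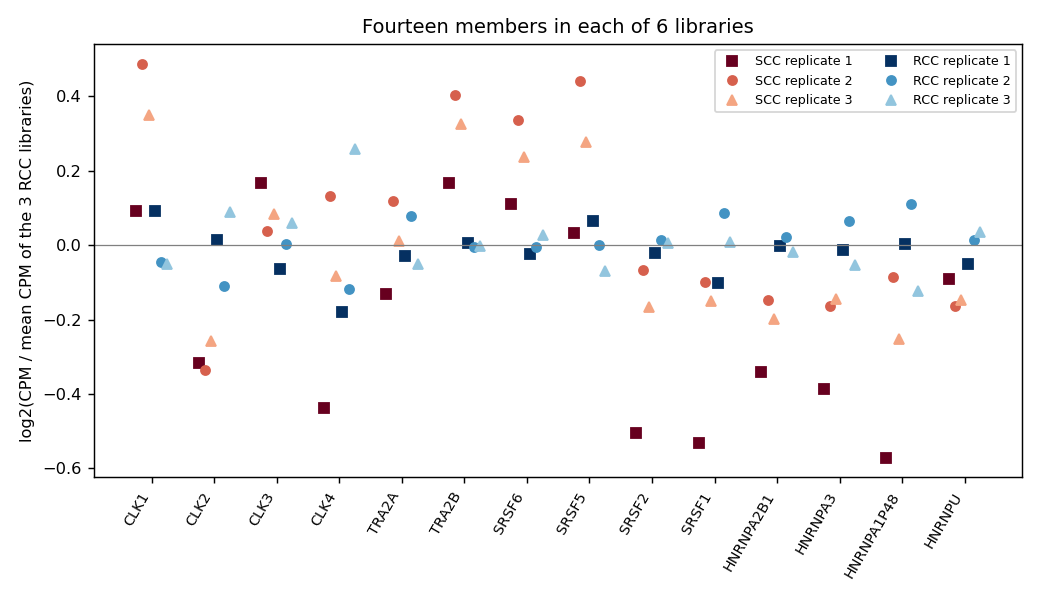
Members given by library: each point is 1 library, as log2 of its CPM over the mean CPM of the 3 RCC libraries, with SCC in reds and RCC in blues and the replicate number by symbol. TRA2B and SRSF6 have all SCC points above all RCC points, CLK2, SRSF2, HNRNPA2B1, HNRNPA3 and HNRNPU have them below, and SCC replicate 1 (dark red square) is the lowest SCC point in 11 of the 14 genes.

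Within the SRSF family, SRSF5 and SRSF6 lay above and SRSF1 and SRSF2 below the RCC level. SRSF6 (ENSG00000124193, chromosome 20, 43457928 to 43464247), a regulator of alternative exons in tau and other transcripts, was at 280.6, 328.2 and 306.5 CPM in SCC and 256.0, 259.2 and 264.8 in RCC. The groups did not overlap, and the log2 fold change was 0.23 ± 0.071 (SE, edgeR adjusted p 0.125). It was 0.29 once SCC replicate 1 was left out (adjusted p 1.3e-04) and 0.33 under the GC offset (adjusted p 3.7e-04). SRSF5 (ENSG00000100650, chromosome 14, 69726900 to 69772005), another SR protein, was at 167.8, 222.9 and 198.8 CPM in SCC and 171.8, 164.2 and 156.3 in RCC. SCC replicate 1 fell inside the RCC range and the other SCC libraries above it. SCC over RCC gave a log2 fold change of 0.26 ± 0.096 (SE, adjusted p 0.182), 0.36 once SCC replicate 1 was left out (adjusted p 4.2e-05) and 0.35 under the GC offset (adjusted p 0.0019).

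SRSF3 (ENSG00000112081, chromosome 6, 36594353 to 36605600), which couples splicing to mRNA export and is described here because it was called in 2 of the 3 fits, was at 508.8, 579.7 and 570.4 CPM in SCC and 488.3, 530.7 and 485.2 in RCC. SCC replicate 1 was below RCC replicate 2, so the groups overlapped. On the log2 scale, the fold change was 0.14 ± 0.072 (SE, edgeR adjusted p 0.295), 0.20 once SCC replicate 1 was left out (adjusted p 0.0090) and 0.25 under the GC offset (adjusted p 0.0060). SRSF9 had groups that did not overlap, with SCC replicate 1 at 258.7 CPM against 205.9 and 200.2 in the other SCC libraries and 191.5 to 199.5 in RCC. Its log2 fold change of 0.17 (edgeR adjusted p 0.326) was 0.05 without that library (adjusted p 0.645) and 0.26 under the GC offset (adjusted p 0.148). With offset and replicate block together it was called (0.24, adjusted p 0.0392), and 46.2% of its exon bases overlap GATC on the opposite strand.

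SRSF1 and SRSF2 are founding SR proteins of constitutive splicing. SRSF2 (ENSG00000161547, chromosome 17, 76734115 to 76737374) was at 144.0, 195.3 and 182.2 CPM in SCC and 201.7, 206.3 and 205.5 in RCC, all SCC libraries below all RCC libraries. Its log2 fold change was -0.24 ± 0.099 (SE, edgeR adjusted p 0.228), and -0.12 without SCC replicate 1, the library with the lowest value (adjusted p 0.163). Under the GC offset it was -0.20 (adjusted p 0.127), and with offset and replicate block together it was called at -0.21 (adjusted p 0.033). MFSD11 on the opposite strand and a microRNA gene share 36.7% of the exon bases of SRSF2. SRSF1 (ENSG00000136450, chromosome 17, 58003360 to 58007346), known as an oncogenic splicing factor in breast cells, was at 73.3, 98.9 and 95.6 CPM in SCC and 98.8, 112.6 and 106.6 in RCC. SCC replicate 2 was level with RCC replicate 1, so the groups overlapped (log2 fold change -0.25, standard error 0.11, adjusted p 0.238; -0.12 without SCC replicate 1, adjusted p 0.234). Under the GC offset SRSF1 was at -0.17 (adjusted p 0.171). The genes AC015813.2 on the same strand and AC015813.5 on the opposite strand share 60.7% of its exon bases. The count ratio of SRSF5 to SRSF1, chosen after its values were seen, was 2.29, 2.25 and 2.08 in SCC and 1.74, 1.46 and 1.47 in RCC. The remaining SRSF genes (SRSF4, SRSF7, SRSF8, SRSF10 and SRSF11) had log2 fold changes from -0.13 to 0.07 and were called in none of the 16 alternative analyses.

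Among the hnRNP genes the lower values in SCC were small. HNRNPA2B1 (ENSG00000122566, chromosome 7, 26173057 to 26201529), which binds UAG-rich RNA and m6A-marked transcripts, was at 1286, 1473 and 1420.2 CPM in SCC and 1627, 1654 and 1609 in RCC. All SCC libraries were lower. The log2 fold change was -0.23 ± 0.066 (SE, edgeR adjusted p 0.107). It was -0.17 without SCC replicate 1, where it was called (adjusted p 0.0155), and -0.13 with the GC offset, where it was not (adjusted p 0.111). The neighbouring gene CBX3 on the opposite strand shares 3.97% of its exon bases.

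HNRNPA3 (ENSG00000170144, chromosome 2, 177212563 to 177223958), a relative that is thought to act in RNA trafficking, was at 445.8, 521.1 and 527.9 CPM in SCC and 577.8, 610.0 and 561.5 in RCC, again without overlap. SCC over RCC gave a log2 fold change of -0.23 ± 0.077 (SE, edgeR adjusted p 0.153). It was -0.15 once SCC replicate 1 was left out (adjusted p 0.0467) and -0.09 under the GC offset (adjusted p 0.283). AC079305.3 on the opposite strand and MIR4444-1 on the same strand share 2.88% of the exon bases of HNRNPA3. HNRNPU (ENSG00000153187, chromosome 1, 244840638 to 244864560), a scaffold protein that binds chromatin and nuclear RNA, was at 906.3, 861.3 and 872.3 CPM in SCC and 932.4, 974.6 and 988.5 in RCC. The groups did not overlap, and SCC replicate 1 was the highest SCC library. COX20 on the opposite strand shares 15.6% of its exon bases. On the log2 scale, the fold change was -0.13 (adjusted p 0.248), -0.15 once SCC replicate 1 was left out (adjusted p 0.0348) and 0.00 under the GC offset (adjusted p 0.997).

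HNRNPA1P48 is named as a pseudogene but listed as protein coding, and near-identical copies of HNRNPA1 make its count uncertain. It was at 13.6, 19.1 and 16.98 CPM in SCC and 20.3, 21.8 and 18.6 in RCC, with SCC replicate 2 inside the RCC range (log2 fold change -0.30, standard error 0.13, adjusted p 0.245). It was at -0.17 when SCC replicate 1 was left out (adjusted p 0.387) and -0.26 under the GC offset (adjusted p 0.187). HNRNPA1, the parent, differed by -0.10 on the log2 scale (adjusted p 0.413), and by -0.04 in both other fits. HNRNPC, HNRNPR and HNRNPLL were lower in all SCC libraries, with log2 fold changes of -0.10, -0.10 and -0.13 and adjusted p of 0.349, 0.404 and 0.366. Their values were -0.09, -0.05 and -0.11 when SCC replicate 1 was left out, and 0.01, 0.06 and -0.02 under the GC offset.

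The annotation shows how often these genes have unproductive transcripts. In GENCODE release 29, 29 of the 39 tested members (74.4%) had at least 1 transcript marked for nonsense-mediated decay, against 43.1% of the 12768 tested protein-coding genes. All 11 tested SRSF genes and both TRA2 genes did, as did 13 of 22 HNRNP genes and 3 of 4 CLK genes, CLK2 being the one without. A transcript with a retained intron was listed for 27 of 39 members (69.2%) and 57.7% of tested protein-coding genes. CLK1 and TRA2B each had 8 such transcripts, and CLK2 had 0. Members also had more transcripts, with a median of 11 against 8, which by itself raises the share of genes with at least 1 of a type. Counted by transcript, 63 of 488 in the tested members were marked for decay, against 12414 of 119454 in tested protein-coding genes. A retained intron was in 123 and 23375 of these transcripts. Counts per gene do not show which of these transcripts the reads came from.

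Other splicing genes were taken from lists chosen with earlier results of these data known. In the list of kinases, phosphatases, transport factors and other proteins that act on SR proteins, 1 of 23 tested genes was called higher and 0 lower, with a median log2 fold change of -0.03; before adjustment, p was under 0.05 for 4 higher and 5 lower genes. With all 6 libraries, the shares over all tested genes, for this and the next lists, are those given above for the members (1.69% and 0.378% called, 11.4% and 8.27% before adjustment). For list counts without SCC replicate 1, the shares called are 3.93% higher and 2.10% lower. Under the GC offset they are 3.29% and 1.54%. The gene was NXF1, the mRNA export receptor that SR proteins recruit, at 124.3, 116.1 and 115.6 CPM in SCC and 96.0, 89.0 and 90.1 in RCC (log2 fold change 0.37, edgeR adjusted p 0.0201). Of 34 SR-related speckle proteins, 2 were called higher and 0 lower (median 0.07), with 5 and 3 when SCC replicate 1 was left out (median -0.01) and 4 and 1 under the GC offset (median 0.05). CCNL1, a cyclin with an arginine-serine domain that binds the CDK11 kinases, was at 152.2, 182.0 and 179.7 CPM in SCC and 89.8, 84.1 and 79.6 in RCC. Its log2 fold change of 1.02 had a standard error of 0.085 (adjusted p 1.1e-04), and it was called in all 16 alternative analyses. RSRC2 was at 127.2, 145.4 and 134.9 CPM in SCC and 100.6, 100.4 and 104.7 in RCC (log2 fold change 0.41, adjusted p 0.0132). NXF1 and RSRC2 lost the call without SCC replicate 3 (adjusted p 0.0720 and 0.0703) and without RCC replicate 1 (0.102 and 0.138), 2 (0.143 and 0.114) or 3 (0.148 and 0.0974). With limma on FPKM, RSRC2 was at 0.0519 to 0.157, and NXF1 lost the call only without a filter (0.111). The list that holds NXF1 had 1 called higher and 2 lower without SCC replicate 1, and 2 and 1 under the GC offset.

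Among the 56 genes of the spliceosome core, 0 were called higher and 1 lower, with a median log2 fold change of -0.03. That gene was SNRPG, an Sm protein of the ring around each spliceosomal RNA, at 91.1, 120.4 and 118.1 CPM in SCC and 141.6, 154.5 and 154.4 in RCC (log2 fold change -0.45, edgeR adjusted p 0.0488). It lost the call without SCC replicate 3 (0.0818) and without RCC replicate 1 (0.154), 2 (0.209) or 3 (0.214), and with limma on FPKM (0.139 to 0.390). Before adjustment, p was under 0.05 for 2 core genes that were higher and 11 that were lower. Without SCC replicate 1, 0 core genes were called higher and 5 lower, and under the GC offset 1 and 2. Among 44 tested regulators of alternative splicing of other families, 0 were called in either direction (before adjustment, 2 higher and 6 lower had p under 0.05). CELF1 had the smallest p, at a log2 fold change of -0.24 (edgeR adjusted p 0.0729). Leaving out SCC replicate 1 gave 1 higher and 5 lower in this list, and the GC offset 0 and 2, with CELF1 called lower in both (adjusted p 0.0022 and 0.0080). Of 15 genes of nonsense-mediated decay, 0 were called (before adjustment, 0 higher and 3 lower had p under 0.05). MAGOHB had the smallest p, at a log2 fold change of -0.34 (edgeR adjusted p 0.173). The nuclear RNAs MALAT1 and NEAT1 were at 165.7 ± 13.8 and 286.8 ± 26.1 CPM in SCC and 185.3 ± 28.2 and 325.4 ± 63.7 in RCC (SD, n = 3), with exact two-sided permutation p of 0.4 and 0.6, where 3 against 3 libraries cannot go below 0.1.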

How the data were processed

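RNA-seq of 6 libraries was used, 3 SCC and 3 RCC. The authors deposited whole-number counts per gene and FPKM per gene. The submitters' processing notes name HISAT2 2.0.5 and featureCounts 1.5.0-p3; build, filters and use of strand are not given in the sources used here. All 58735 rows had the position of GENCODE release 29 (GRCh38), and the deposited FPKM equalled count over length and over 1 constant per library, within 0.1%. That constant was 0.983 (SCC replicate 1) to 1.02 (RCC replicate 1) times the summed count of the library. Counts were filtered (filterByExpr by group, minimum count 10), scaled by TMM and tested by group with edgeR 4.0.16 in R 4.3.3 (glmQLFit, quasi-likelihood F test, two-sided). Benjamini-Hochberg adjustment ran over all tested genes, with a call at an adjusted p under 0.05. Standard errors are the absolute log2 fold change over the square root of F. CPM uses TMM-scaled totals. Intervals and tests cover the spread between 3 libraries per group. Alternatives were DESeq2 1.42.0, RLE and upper-quartile scaling, no filter beyond 1 count, limma 3.58.1 on log2(FPKM + 1) and log2(FPKM + 0.1) at FPKM of at least 1 in 3 libraries, log2(FPKM + 1) unfiltered, a GC offset (a lowess curve per library, span 0.3, on the longest transcript of each gene), a block for the replicate number alone or with that offset, and leaving out libraries one by one. The fit was tested on simulated data. Members, lists and alternatives were chosen with earlier results of these data known. Named with values in every library were the CLK and TRA2 genes, called members, and the 4 SRSF and 4 HNRNP genes of smallest p; of the other lists, called genes or the one of smallest p. SRSF3, SRSF9 and others named beyond these were chosen after their values were seen. Columns of other samples numbered 0. Overlapping genes are uncertain because the use of strand is not known. Protein sequences were not used here. One leukocyte marker is not reported here.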

Additional observations from a re-analysis of the deposited data

How the results depend on the processing

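Against 268 genes called higher and 60 lower, the GC offset gave 523 and 244, no filter beyond 1 count 995 and 315, DESeq2 120 lower, log2(FPKM + 1) 130 and 36, log2(FPKM + 0.1) 117 and 34, and unfiltered log2(FPKM + 1) 48 and 1. The deviations of same-numbered libraries from their group means correlated at -0.02, 0.06 and -0.12. Of the SCC libraries, only replicate 2 correlated best with its own number. Deviations from a mean of 3 libraries depend on each other, and SCC replicate 1 stood apart, so this cannot decide whether the libraries were paired. A fit with a replicate block gave 350 genes higher, 106 lower and 0 members called; block and GC offset together gave 621 and 430. Against 0 and 0 members called, DESeq2 gave 1 and 1, the GC offset 5 and 1, no filter beyond 1 count 3 higher, and block and GC offset together 6 and 2. Leaving out 1 library at a time gave 99 to 642 genes higher, 8 to 343 lower, 0 to 5 members higher and 0 to 4 lower. Fewer libraries entered the last fits; for the others the cause was not tested. Of the 39 tested members, 28 were called in none of the 16 alternatives and 23 kept their sign in all of them. The matching shares over all tested genes are not given, so these counts describe the members only and do not set them apart. Each of the 11 members called at least once kept its sign, except HNRNPU, at 0.00 with the GC offset. All but 1 of the tested members had a mean above 10 CPM, and the number of libraries limits the precision.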

Other observations

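Processed copies of these genes are common in the table: 126 rows are pseudogenes named for an SRSF or HNRNP gene. Together they held 0.338% ± 0.0033 of the members' counts in SCC and 0.364% ± 0.023 in RCC (SD, n = 3). The 9 HNRNPC copies held the most relative to a member of the set, 2815 counts or 2.85% of those of HNRNPC. The 74 HNRNPA1 copies held 1951 counts, 0.830% of those of HNRNPA1, and 37 of them had at least 1 count.

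The count ratio of TRA2B to HNRNPA2B1, chosen after its values were seen as a pair of abundant members that lay on opposite sides, was 0.213, 0.220 and 0.216 in SCC and 0.151, 0.147 and 0.152 in RCC. Because TRA2B was higher and HNRNPA2B1 lower in every SCC library, this ratio had to differ between the groups. In log2(CPM + 1), SCC replicate 1 lay -0.20 (TRA2B) and -0.17 (HNRNPA2B1) from the mean of SCC replicates 2 and 3. The GC contents of the genes are 40.3% and 39.9%. Shifts this similar largely cancel in a ratio, so the ratio cannot show whether SCC replicate 1 stood apart from its group.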
